A study of Canis lupus familiaris with 9 samples.

Results

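The genes described here mark or steer the blood vessels of skeletal muscle. They are 24 genes of endothelial cells, 9 ligands, co-receptors and hypoxia factors that act on those cells, and 10 genes of mural cells, the smooth muscle cells and pericytes that wrap a vessel. Each gene was taken if it was the only symbol of a probe set in the platform annotation, and was represented by 1 probe set, the one with the highest mean over the 9 arrays. Of the 43 genes, 41 had such a probe set, among 15115 genes named in this way on the whole array. SOX17 and SOX18, transcription factors of endothelial cells, were not analysed here because no probe set carried either symbol alone.

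Endothelial cells line the vessel and are held together by adhesion proteins such as VE-cadherin. Vascular endothelial growth factors, made in large part by muscle fibres, bind receptor tyrosine kinases on endothelial cells and drive the growth and upkeep of capillaries, while angiopoietins act on the TIE receptors and stabilise vessels. Mural cells contract or support the vessel and depend on platelet-derived growth factor and Notch signals from the endothelium, and hypoxia-inducible factors turn on VEGFA when oxygen is short.

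Muscle came from 9 intact female beagles of 4 years, sampled after 24 weeks of a feeding trial and an overnight fast. The 5 ad libitum dogs (animals 2, 5, 6, 7 and 8) ate without restriction, and the 4 control dogs (animals 1, 3, 4 and 9) were given what kept their body weight at baseline. All dogs received Purina Pro Plan Performance Formula, feeding was assigned at random, and each dog gave 1 Affymetrix array. The labels do not say which muscle was sampled. Levels below are deposited GCRMA values, taken as log2, and a difference of 1 then stands for a doubling.

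Of 17 skeletal muscle markers 16 were on the array, and all 16 were above the filter described next, with a mean level of 14.85 to 15.40 in ad libitum dogs and 15.24 to 15.41 in control dogs. A probe set was tested if its value was above log2 4 on at least 4 arrays, which 18394 probe sets and 33 of the 41 vascular genes met, 31 of them on all 9 arrays. The other 8 vascular genes (ROBO4, MMRN2, PLVAP, NOS3, ANGPT2, NRP2, NOTCH3 and CSPG4) lay below it on nearly every array and are given as values without a test. PECAM1, CDH5 and VWF serve as markers of endothelial cells, and ACTA2, MYH11 and PDGFRB as markers of mural cells. All of these were above the filter in every dog. Whether other cells of the muscle also contributed to their values was not tested. Array pairs correlated at r = 0.976 to 0.994 over all probe sets. The number of arrays limited the precision, and the standard error of a difference was 0.22 in the median vascular gene, from 0.088 for CNN1 to 0.50 for S1PR1.

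The question was whether vascular transcripts of muscle differ with unrestricted feeding. None of the 33 tested vascular genes passed limma at an adjusted p of 0.05, with adjusted p from 0.796 to 0.998, and 0 of all 18394 probe sets did (0%). Without adjustment, 2 of the 33 (6.06%) had a p under 0.05, the VEGF receptor FLT1 and the smooth muscle gene SMTN, against 5.91% of all tested probe sets. The groups did not overlap for 1 of the 33 (3.03%), FLT1, against 1.44% of all tested probe sets. Means were higher in ad libitum dogs for 17 of the 33 (51.5%), against 48.4% of all tested probe sets. Each of these shares rests on 1 or 2 genes or lies near its background, and single genes are given by their values.

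The size of the differences was also that of the array as a whole. The median absolute log2 difference was 0.14 over the 33 genes and 0.15 over all tested probe sets, and 63.6% of the genes and 70.1% of the probe sets differed by less than 0.25. The median signed difference was 0.0083 for the 18 tested endothelial genes, -0.086 for the 7 tested ligand, co-receptor and hypoxia genes and 0.021 for the 8 tested mural genes, with -0.0082 for all tested probe sets. Values of all 3 lists thus lay on both sides of 0. A p above the threshold does not show equal expression: the 95% intervals of the differences reached down to -1.29, for RGS5, and up to 1.66, for S1PR1.

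**Figure D1:**
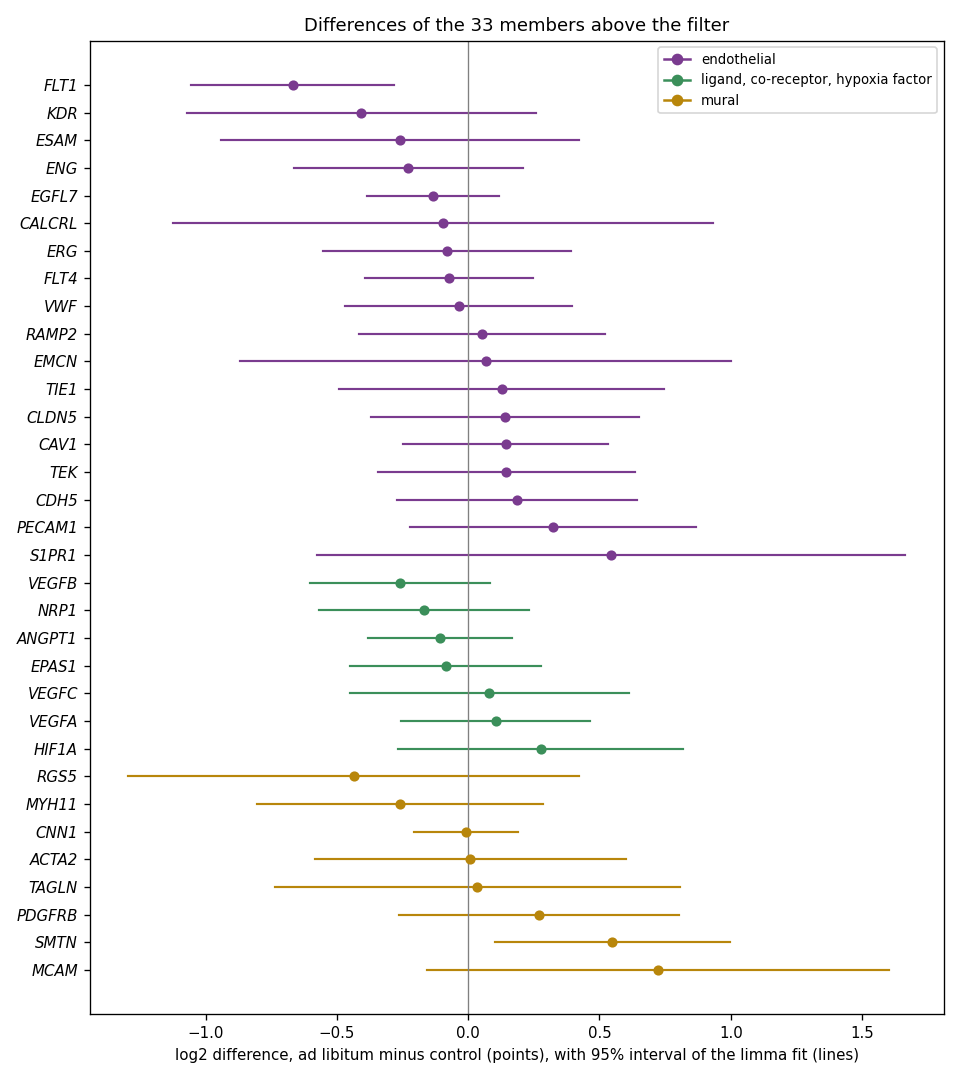
Log2 difference of each of the 33 tested vascular genes, ad libitum minus control, as points with the 95% interval of the limma fit as lines (5 ad libitum and 4 control dogs), coloured by list. FLT1 at -0.67 and SMTN at 0.55 are the 2 genes whose interval, not adjusted for the number of tests, leaves out 0.

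FLT1, which binds VEGFA with high affinity but signals weakly and acts largely as a decoy, was the vascular gene with the smallest p. It stood at 6.16, 5.97, 6.13, 5.95 and 5.84 in ad libitum dogs 2, 5, 6, 7 and 8, against 6.34, 6.39, 7.04 and 6.93 in control dogs 1, 3, 4 and 9. Every ad libitum dog lay below every control dog, and control dogs 4 and 9 lay well above control dogs 1 and 3. The means were 6.01 ± 0.13 (SD, n = 5) and 6.68 ± 0.36 (SD, n = 4), a log2 difference of -0.67 (SE 0.17, 95% interval -1.06 to -0.28), or a ratio of 0.629. Limma gave it an unadjusted p of 0.00345 and an adjusted p of 0.796. The other FLT1 probe sets above the filter had differences of -0.57 (SE 0.29) and -0.43 (SE 0.27), and in both of these the groups overlapped. With 1 dog left out the difference ran from -0.78 to -0.55. With the adipocyte marker mean as a covariate it was -0.61, but that covariate was itself higher in ad libitum dogs. In whole muscle, fewer cells of a type and less RNA per cell cannot be told apart from the level of 1 gene. The endothelial markers PECAM1, CDH5 and VWF differed by 0.32, 0.19 and -0.037, with 95% intervals that reached down to -0.22, -0.27 and -0.47. Of the 18 tested endothelial genes, 9 had higher and 9 had lower means in ad libitum dogs. Like FLT1, KDR at -0.41, ENG at -0.23 and ESAM at -0.26 were among the lower ones. None of these differences was tested against that of FLT1.

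KDR, the main signalling receptor of VEGFA, did not separate the groups. It was 8.61, 8.18, 8.59, 8.73 and 9.71 in ad libitum dogs 2, 5, 6, 7 and 8, against 9.61, 9.30, 8.83 and 8.93 in control dogs 1, 3, 4 and 9. Of the ad libitum dogs 4 lay below all controls, and dog 8 lay above them all, so the log2 difference of -0.41 (SE 0.30, adjusted p = 0.831) became -0.64 without dog 8 and -0.26 without control dog 1. FLT4, the receptor of VEGFC and mainly a receptor of lymphatic endothelium, averaged 4.96 ± 0.26 (SD, n = 5) and 5.04 ± 0.01 (SD, n = 4), a difference of -0.074 near the filter.

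The remaining endothelial receptors differed by little more than their standard errors at most. The angiopoietin receptor TEK differed by 0.15 (SE 0.22) and its partner TIE1 by 0.13 (SE 0.28). Endoglin, ENG, a co-receptor of transforming growth factor beta, differed by -0.23 (SE 0.19), and its 3 probe sets had -0.23, -0.41 and -0.30. ENG was 10.49 in control dog 3, the highest of the 9, and its difference was -0.038 without that dog and -0.35 without control dog 4. CALCRL and RAMP2, which together form the adrenomedullin receptor, differed by -0.097 (SE 0.46) and 0.053 (SE 0.21). CALCRL was above log2 4 on 5 of the 9 arrays, and its difference is uncertain in size. ROBO4, a guidance receptor, had 3.46 and 3.52 as means of the ad libitum and control dogs, below the filter on every array.

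S1PR1, the sphingosine-1-phosphate receptor that tightens endothelial junctions, varied most among the ad libitum dogs. It read 6.61 and 6.50 in ad libitum dogs 2 and 5 and 4.25, 4.53 and 4.94 in ad libitum dogs 6, 7 and 8, against 4.89, 4.70, 4.86 and 4.84 in control dogs 1, 3, 4 and 9. Dogs 2 and 5 lay far above every control and dog 8 just above, dogs 6 and 7 lay below every control, and the controls spanned only a narrow range. The controls and dogs 6, 7 and 8 lay near the filter, so the gaps among them are uncertain, and S1PR1 had only 1 probe set. The difference of 0.54 (SE 0.50, adjusted p = 0.870) was 0.23 without dog 2, 0.26 without dog 5 and 0.82 without dog 6. With the adipocyte marker mean as a covariate it was 0.057.

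Genes of endothelial junctions and surface had higher means in 5 of 6 tested cases, by 0.066 to 0.32. PECAM1, the adhesion molecule CD31, was 10.55, 10.33, 9.78, 9.48 and 10.26 in ad libitum dogs 2, 5, 6, 7 and 8, against 9.85, 9.29, 9.94 and 9.94 in control dogs 1, 3, 4 and 9. Ad libitum dogs 2, 5 and 8 lay above all controls and dogs 6 and 7 among them, for a difference of 0.32 (SE 0.24, adjusted p = 0.836). The PECAM1 difference was 0.17 without control dog 3, 0.20 without ad libitum dog 2, 0.19 for the mean of its probe sets and 0.021 with the adipocyte marker mean as a covariate. CDH5, VE-cadherin, was 7.45, 6.68, 6.68, 6.60 and 6.68 in ad libitum dogs 2, 5, 6, 7 and 8, against 6.29, 6.57, 6.79 and 6.87 in control dogs 1, 3, 4 and 9. Apart from dog 2, the ad libitum values of CDH5 fell within the range of the controls, and the difference of 0.19 became 0.029 without that dog.

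The other members of this set were CLDN5, claudin of tight junctions, at 0.14 (SE 0.23), CAV1, the caveolar coat protein, at 0.14 (SE 0.17), EMCN, a sialomucin of capillaries and veins, at 0.066 (SE 0.42), and ESAM, an adhesion molecule, at -0.26 (SE 0.30). Without control dog 9 the ESAM difference was -0.012. EMCN was 5.19 in control dog 3 and 6.67 to 6.71 in the other controls, and without that dog the difference was -0.31. MMRN2, a matrix protein of endothelium, and PLVAP, a protein of fenestral diaphragms, were below the filter on every array, with means of 2.15 in both groups for MMRN2 and of 3.07 and 2.95 in ad libitum and control dogs for PLVAP.

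VWF, the clotting factor stored by endothelial cells, was 10.94, 10.33, 10.44, 10.04 and 10.82 in ad libitum dogs 2, 5, 6, 7 and 8, against 10.47, 10.80, 10.44 and 10.50 in control dogs 1, 3, 4 and 9. The ad libitum dogs lay on both sides of the controls, and the difference was -0.037 (SE 0.19, adjusted p = 0.983). EGFL7, a factor secreted by endothelium, differed by -0.13 (SE 0.11), and ERG, an ETS transcription factor, by -0.082 (SE 0.21). NOS3, the endothelial nitric oxide synthase, exceeded log2 4 on 1 array, that of ad libitum dog 2 at 4.21, and averaged 3.53 ± 0.42 (SD, n = 5) and 3.30 ± 0.24 (SD, n = 4).

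**Figure D2:**
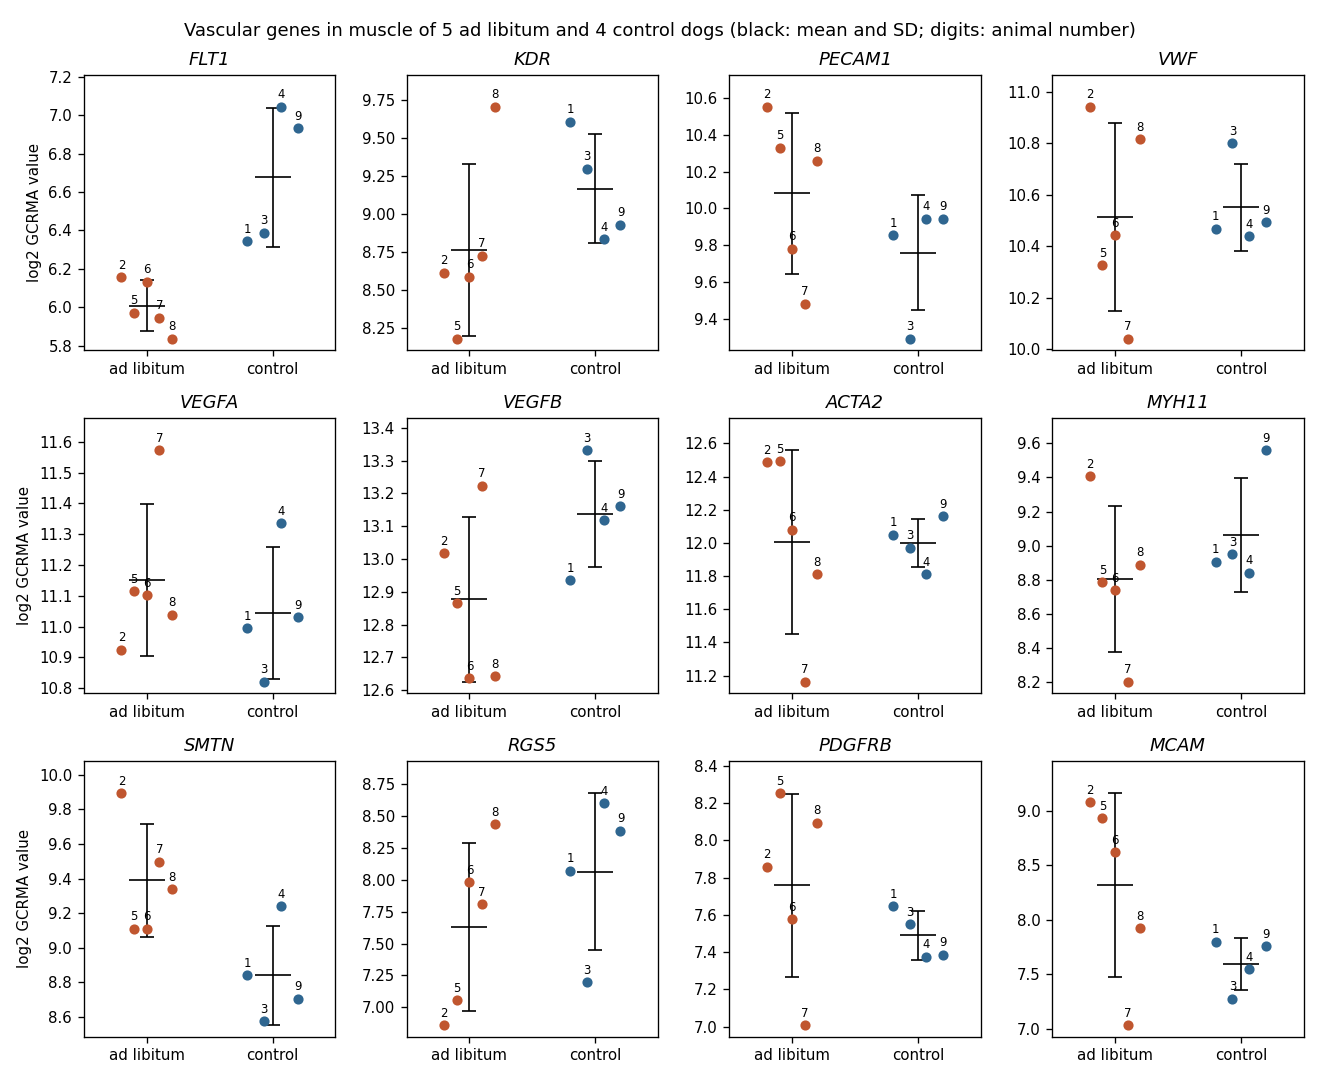
Log2 GCRMA value of 12 vascular genes in each dog (points, labelled with the animal number), with mean and SD in black; ad libitum dogs are on the left of each panel and control dogs on the right, and each panel has its own scale. FLT1 is the gene in which the groups do not overlap, and ad libitum dog 7 is lowest in ACTA2, MYH11, PDGFRB and MCAM.

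Among the ligands, VEGFA showed no difference beyond the spread of the dogs. It read 10.93, 11.11, 11.10, 11.57 and 11.04 in ad libitum dogs 2, 5, 6, 7 and 8, against 10.99, 10.82, 11.34 and 11.03 in control dogs 1, 3, 4 and 9. Dog 7 was the highest of all 9 dogs, and the difference of 0.11 (SE 0.16, adjusted p = 0.924) was -9.7e-05 without it. The other VEGFA probe set differed by -0.033 (SE 0.21).

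VEGFB, a ligand of FLT1 tied to fatty acid uptake by endothelium in mice, was 13.02, 12.86, 12.64, 13.22 and 12.64 in ad libitum dogs 2, 5, 6, 7 and 8, against 12.94, 13.33, 13.12 and 13.16 in control dogs 1, 3, 4 and 9. Ad libitum dogs 5, 6 and 8 lay below every control, and the difference was -0.26 (SE 0.15, adjusted p = 0.796). The other VEGFB probe set differed by -0.37 (SE 0.19). VEGFC, the ligand of FLT4, differed by 0.081 (SE 0.24).

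Angiopoietins were near background in both groups. ANGPT1, which activates TEK, averaged 4.08 ± 0.06 (SD, n = 5) and 4.19 ± 0.23 (SD, n = 4), with control dog 9 alone at 4.52. ANGPT2, which antagonises ANGPT1 in most settings, was 3.90, 3.84, 3.88, 4.05 and 3.88 in ad libitum dogs 2, 5, 6, 7 and 8, against 3.89, 3.95, 3.88 and 3.87 in control dogs 1, 3, 4 and 9. It lay below log2 4 on 8 of 9 arrays, so these values carry little about its level. Of the neuropilins, co-receptors of VEGFA, NRP1 differed by -0.17 (SE 0.18) and NRP2 was below the filter on every array, with means of 2.64 and 2.68 in ad libitum and control dogs.

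The hypoxia-inducible factors differed in sign. HIF1A had a difference of 0.28 (SE 0.24) with 3 probe sets between 0.11 and 0.28, and EPAS1, the endothelial hypoxia factor HIF-2 alpha, one of -0.086 (SE 0.16). HIF1A was 10.07 in ad libitum dog 5, the highest of the 9, and its difference was 0.11 without that dog and 0.024 with the adipocyte marker mean as a covariate.

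Mural genes of the contractile apparatus gave SMTN, smoothelin, as the second vascular gene with an unadjusted p under 0.05. It was 9.89, 9.11, 9.11, 9.50 and 9.34 in ad libitum dogs 2, 5, 6, 7 and 8, against 8.84, 8.58, 9.24 and 8.71 in control dogs 1, 3, 4 and 9. Control dog 4 lay above ad libitum dogs 5 and 6, and the other controls lay below all ad libitum dogs. The difference was 0.55 (SE 0.20, 95% interval 0.10 to 1.00), a ratio of 1.46, with an unadjusted p of 0.0213 and an adjusted p of 0.796. A further SMTN probe set differed by 0.52 (SE 0.18) and the remaining one, near log2 4, by 0.13 (SE 0.38). Limma gave SMTN a difference of 0.46 with an unadjusted p of 0.0630 without control dog 3, of 0.50 with 0.0558 without control dog 9, and of 0.40 with 0.0886 for the mean of its probe sets. SMTN transcripts are also known from striated muscle, and the cell type behind this probe set was not tested.

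The classical smooth muscle genes did not follow SMTN. ACTA2, smooth muscle actin, was 12.49, 12.50, 12.08, 11.16 and 11.81 in ad libitum dogs 2, 5, 6, 7 and 8, against 12.05, 11.97, 11.81 and 12.16 in control dogs 1, 3, 4 and 9. The ad libitum dogs reached above and below all controls, with a difference of 0.0080 (SE 0.26, adjusted p = 0.998). Actin isoforms are nearly identical in coding sequence, and the specificity of the ACTA2 probe set was not tested. MYH11, smooth muscle myosin, was 9.41, 8.79, 8.74, 8.20 and 8.89 in ad libitum dogs 2, 5, 6, 7 and 8, against 8.91, 8.95, 8.84 and 9.56 in control dogs 1, 3, 4 and 9. The groups overlapped, with ad libitum dog 7 lowest and control dog 9 highest, and the difference was -0.26 (SE 0.24, adjusted p = 0.873). With the adipocyte marker mean as a covariate, MYH11 differed by -0.62, with an unadjusted p of 0.0349 and an adjusted p of 1.00. TAGLN, transgelin, differed by 0.035 (SE 0.34), and CNN1, calponin, by -0.0096 (SE 0.088) with all dogs between 4.95 and 5.12. These CNN1 values lay near the filter, with SDs of 0.06 in ad libitum and 0.01 in control dogs, and carry little about its level.

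Of the pericyte genes, RGS5, a regulator of G-protein signals that marks pericytes, was 6.86, 7.06, 7.98, 7.81 and 8.44 in ad libitum dogs 2, 5, 6, 7 and 8, against 8.07, 7.20, 8.60 and 8.39 in control dogs 1, 3, 4 and 9. Ad libitum dogs 2 and 5 lay below every control, and the difference of -0.44 (SE 0.38, adjusted p = 0.864) was -0.72 without control dog 3 and -0.24 without dog 2. PDGFRB, the receptor through which pericytes are recruited, was 7.86, 8.25, 7.58, 7.01 and 8.10 in ad libitum dogs 2, 5, 6, 7 and 8, against 7.65, 7.55, 7.38 and 7.39 in control dogs 1, 3, 4 and 9. Ad libitum dogs 2, 5 and 8 lay above every control and dog 7 below, for a difference of 0.27 (SE 0.24, adjusted p = 0.864). RGS5 and PDGFRB, both used as pericyte markers, thus had differences of opposite sign.

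MCAM, the adhesion molecule CD146 of pericytes and endothelium, had the largest difference of the 33 genes. It was 9.08, 8.93, 8.62, 7.04 and 7.92 in ad libitum dogs 2, 5, 6, 7 and 8, against 7.80, 7.28, 7.55 and 7.76 in control dogs 1, 3, 4 and 9. Of the ad libitum dogs 4 lay above every control and dog 7 below every control. The difference was 0.72 (SE 0.39, adjusted p = 0.796), and its 3 tested probe sets had 0.72, 0.49 and 0.65. Without dog 7 it was 1.04, with an unadjusted p of 0.00327 and an adjusted p of 0.179. With the adipocyte marker mean as a covariate it was 0.017. NOTCH3, the Notch receptor of mural cells, and CSPG4, the proteoglycan NG2, were below the filter on every array, with means of 2.49 and 2.40 in ad libitum dogs and of 2.50 and 2.41 in control dogs.

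**Figure D3:**
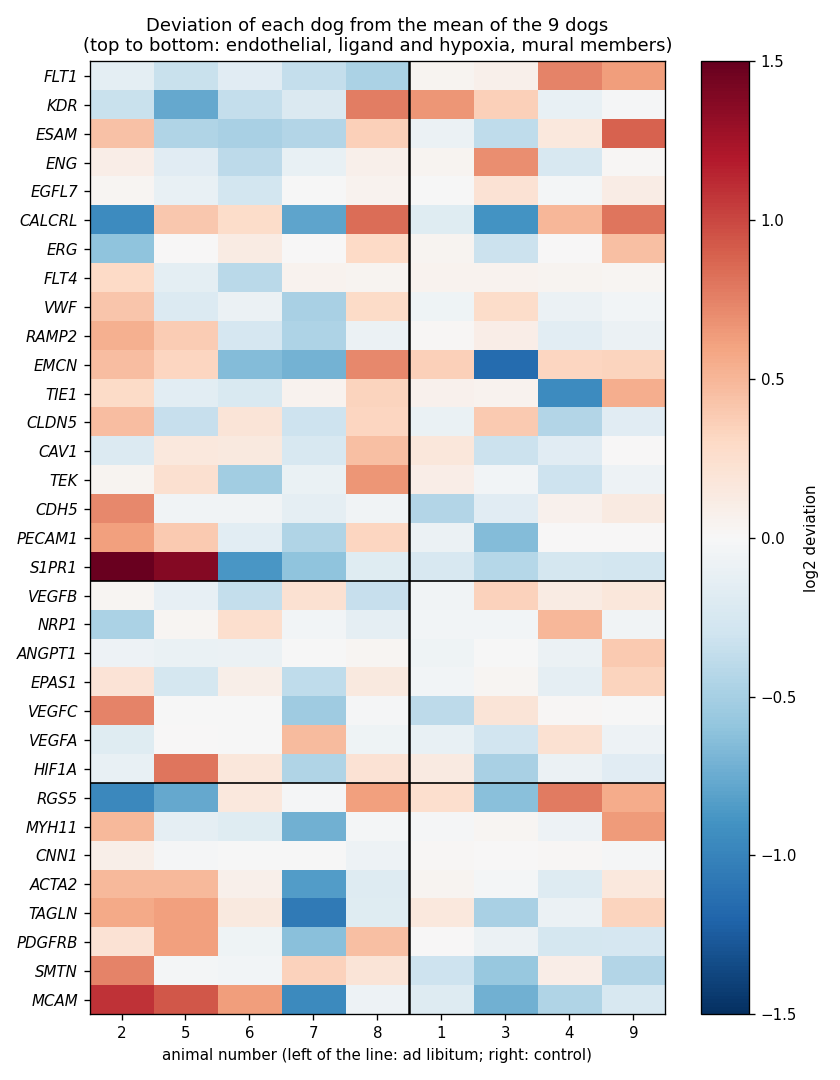
Deviation of each dog from the mean of the 9 dogs for the 33 tested vascular genes, on the log2 scale from blue (below) to red (above); ad libitum dogs stand left of the vertical line and control dogs right of it. Ad libitum dog 2 is above the mean in 23 genes and ad libitum dog 7 in 6.

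Within the 3 vascular lists, single genes mostly varied more among ad libitum dogs than among controls, above all in the mural list. The SD over dogs was wider in the ad libitum group for 8 of 8 mural, 13 of 18 endothelial and 5 of 7 ligand, co-receptor and hypoxia genes, and its median over mural genes was 0.52 in ad libitum and 0.26 in control dogs. Ad libitum dog 7 was lowest of all 9 dogs in 5 of the 8 mural genes, and dog 2 was highest in 7 of the 18 endothelial and 3 of the 8 mural genes. Over the 18 endothelial genes the median deviation was 0.29 for ad libitum dog 2, 0.31 for dog 8, -0.24 for dog 6 and -0.28 for dog 7, while the 4 controls lay between -0.06 and 0.03. The number of dogs differed between the groups, and the difference in spread was not tested. It was not counted over all tested probe sets, and a wider spread was not particular to vascular genes. The SD of the mean level was 1.48 in ad libitum and 0.53 in control dogs for the fibroblast and matrix markers described next, but 0.69 and 0.72 for adipocyte markers.

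Markers of other cell types also varied between dogs. Of 13 tested fibroblast and matrix markers 13 had higher means in ad libitum dogs, with a mean level of 10.20, 11.98, 10.51, 7.86 and 10.07 in dogs 2, 5, 6, 7 and 8, against 8.83, 7.57, 8.51 and 8.30 in control dogs 1, 3, 4 and 9. Dog 7, lowest in most mural genes, was also the ad libitum dog with the lowest matrix level. Dog 6 was low in endothelial genes and had the next highest matrix level after dog 5. Dog 8 was high in endothelial genes and had the lowest matrix level of the ad libitum dogs other than dog 7. A link between the matrix level and the vascular genes was not tested. Adipocyte markers, of which 13 of 15 had higher means, averaged 8.32 to 10.15 in ad libitum dogs and 7.70 to 9.35 in control dogs. Of 15 macrophage markers on the array 8 were tested. All 8 had higher means, at levels of 5.00 to 8.01 and 4.90 to 5.66. Over all tested probe sets 48.4% had a higher mean in ad libitum dogs. An unadjusted limma p under 0.05 was found for 9 fibroblast and matrix, 3 adipocyte and 3 macrophage markers. The share over all tested probe sets was 5.91%, and 0 of these markers passed the adjusted test. The adipocyte markers ADIPOQ, FABP4 and LEP were above the filter, while CSF1R and PTPRC of the macrophage list did not meet it and were not tested. With the adipocyte marker mean as a covariate, the median difference became -0.13 for endothelial genes, -0.10 for ligand, co-receptor and hypoxia genes and -0.13 for mural genes, and none of the 33 genes passed the adjusted test. The covariate itself was higher in ad libitum dogs, at a mean of 9.46 against 8.51 in control dogs. Differences with this covariate therefore cannot separate adipocyte content from feeding. The part of these cells in the values of single vascular genes was not tested.

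**Figure D4:**
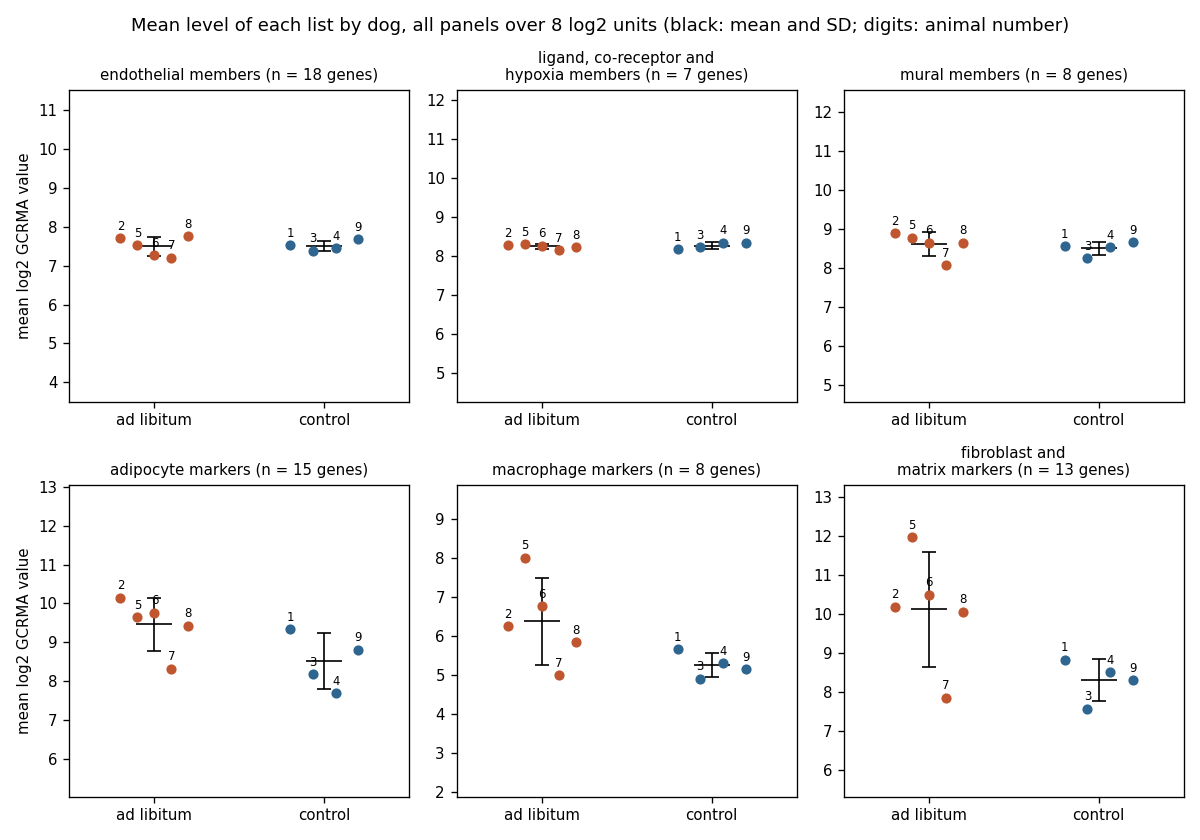
Mean log2 GCRMA value of the tested genes of 6 lists in each dog (points, labelled with the animal number), with mean and SD in black; ad libitum dogs are on the left and control dogs on the right, and every panel spans the same number of log2 units. Endothelial levels run from 7.21 to 7.76 in ad libitum and 7.38 to 7.68 in control dogs, while fibroblast and matrix levels run from 7.86 to 11.98 and 7.57 to 8.83.

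Probe sets of one gene mostly had the same sign. Of the 20 vascular genes with more than 1 tested probe set, 18 had all of them on one side of 0. The exceptions were VEGFA, at -0.033 and 0.11, and TAGLN, at -0.058 to 0.035. Probe sets of PECAM1 ran from 0.048 to 0.32 and those of MYH11 from -0.30 to -0.15. RNA quality, read as the 3' minus 5' value of the GAPDH control probe sets, was 2.14 to 2.29 in ad libitum dogs and 1.96 to 2.22 in control dogs. The means were 2.21 ± 0.07 (SD, n = 5) and 2.09 ± 0.11 (SD, n = 4), and ad libitum dogs 2, 6 and 8 lay above every control. The bearing of RNA quality on the differences was not tested.

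**Figure D5:**
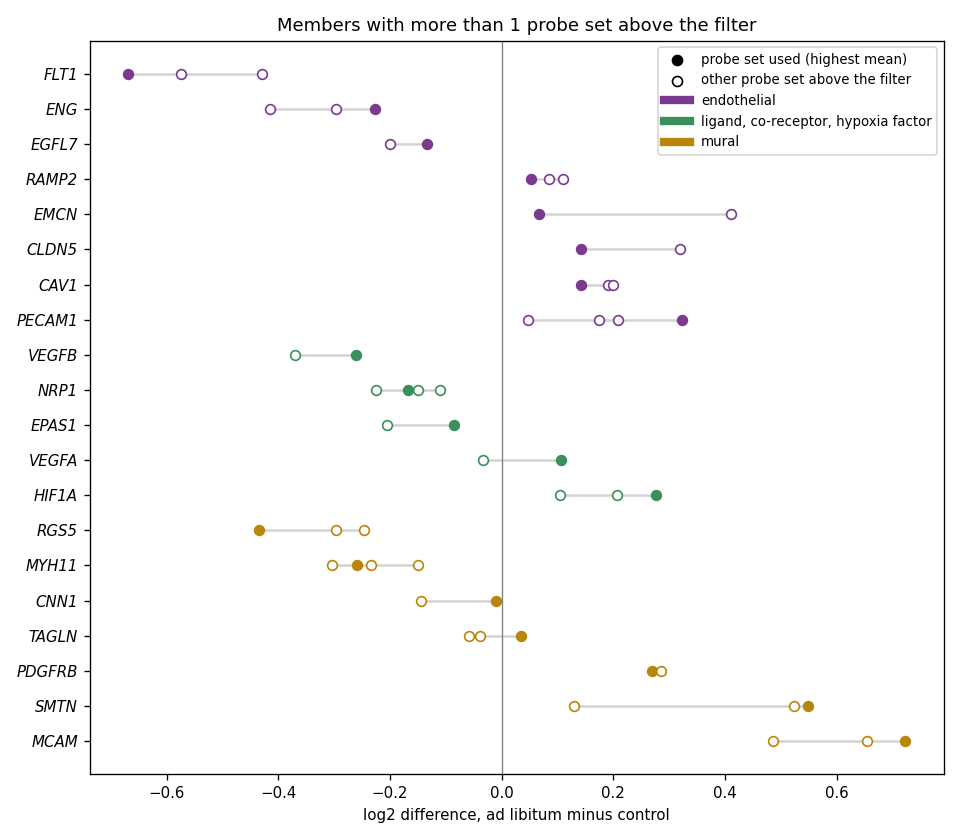
Log2 difference, ad libitum minus control, of each tested probe set of the 20 vascular genes with more than 1; filled points are the probe sets used in the text, open points the others. The probe sets of FLT1 lie between -0.67 and -0.43 and those of MCAM between 0.49 and 0.72.

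Further genes of the same pathways were read from longer lists, in which 0 passed the adjusted test. Over all tested probe sets 48.4% had a higher mean in ad libitum dogs and 5.91% an unadjusted p under 0.05, and with so few genes a list the counts below are given as a description. Of 12 tested further endothelial genes 9 had higher means, with a median of 0.22, and 1 had an unadjusted p under 0.05, VCAM1, the adhesion molecule that inflamed endothelium and other cells display. VCAM1 averaged 7.45 and 6.11 in ad libitum and control dogs, a difference of 1.34 (SE 0.43). Of 16 tested further mural genes 11 had higher means, with a median of 0.19, and 1 had an unadjusted p under 0.05, CD248, endosialin of pericytes and fibroblasts, at 1.01 (SE 0.45). KCNJ8 and ABCC9, potassium channel subunits used as pericyte markers, differed by 0.41 (SE 0.23) and 0.14 (SE 0.26). TPM2 of the same list averaged 15.16 in ad libitum and 15.10 in control dogs, at the level of the skeletal muscle markers. The part of muscle fibres in the values of this list, ABCC9 included, was not tested.

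Growth factors and inhibitors of vessel growth were read in the same way, beside the same 48.4% and 5.91% of all tested probe sets. Of 13 tested further growth factors and their receptors 9 had higher means, with a median of 0.21, and TGFB1, transforming growth factor beta, had 0.89 (SE 0.31) with an unadjusted p of 0.0189. The peptide adrenomedullin, ADM, the ligand of CALCRL and RAMP2, differed by -0.52 (SE 0.56). All 5 tested inhibitors of vessel growth had higher means, with a median of 1.02. The 13 tested fibroblast and matrix markers were all higher as well, with a median of 2.10. Whether the inhibitors differed apart from those markers was not tested. Those with an unadjusted p under 0.05 were SERPINF1, pigment epithelium-derived factor, at 0.69 (SE 0.24) and the matrix protein SPARC at 1.42 (SE 0.53), which is also in the fibroblast and matrix list. THBS1, thrombospondin, differed by 1.61 (SE 0.86).

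Of 17 tested genes of oxygen sensing and hypoxia targets 7 had higher means in ad libitum dogs, near the 48.4% of all tested probe sets, with a median of -0.11. ANKRD37, a target of HIF1A, had the one unadjusted p under 0.05, at 9.63 and 10.22 in ad libitum and control dogs, a difference of -0.58 (SE 0.25). The oxygen sensor EGLN1 differed by -0.26 (SE 0.17), and the glycolytic targets PGK1 and LDHA by 0.10 (SE 0.16) and -0.11 (SE 0.22). For the 6 genes with an unadjusted p under 0.05 in these longer lists, the adjusted p was 0.796.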

How the data were processed

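RNA extracted with Trizol was biotin-labelled and hybridised to 1 Affymetrix canine array per dog. The authors made the deposited log2 values with GCRMA, as the submitters' processing notes state. Neither version nor log base is given, and the base was read from the range, 0.652 to 16.6. GCRMA equalises the distributions of the arrays, so a shift of most transcripts would be hidden, and values near background are uncertain. Of 43035 probe sets, 111 controls were left out. Groups and dog numbers came from the labels, which name no batch. The gene table of assembly UU_Cfam_GSD_1.0 matched 40 of the 41 vascular genes by identifier, with 0 symbols changed.

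All 18394 probe sets that met the filter were fitted together in R 4.3.3 with limma 3.58.1 (two-sided, no covariate, 7 residual and 2.32 prior degrees of freedom), with Benjamini-Hochberg adjustment. The fit was tested on simulated data. The members and lists were chosen with earlier results of these data known. Values per dog are given for genes with an unadjusted p under 0.05 or groups that do not overlap, and for FLT1, KDR, PECAM1, CDH5, VWF, VEGFA, ANGPT2, ACTA2, MYH11, RGS5 and PDGFRB. S1PR1, VEGFB and MCAM were added after their values were seen, as were genes of the longer lists with a p above 0.05. Alternatives tried were: cyclic loess, array weights, an intensity trend with robust estimation, low values raised to log2 4, no filter or one at log2 6, 15 adipocyte markers' mean as a covariate, all probe sets of a gene averaged, a threshold of 0.10, and each dog left out.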

Additional observations from a re-analysis of the deposited data

Results flagged for a closer look

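In 10 of the 82 sets of values screened (41 vascular genes in each of 2 groups), 1 dog stood apart from its group by Dixon's test at 95%; chance gives about 5% of such sets. Control dog 3 stood apart in 3 endothelial genes: low in PECAM1 at 9.29 (next dog 9.85) and in EMCN at 5.19 (next dog 6.67), and high in VWF at 10.80 (next dog 10.50). Ad libitum dog 2 was high in CDH5 at 7.45 (next dog 6.68) and in MMRN2 at 2.18 (next dog 2.15). Control dog 9 was high in ANGPT1 at 4.52 (next dog 4.12) and in MYH11 at 9.56 (next dog 8.95). Control dog 4 was high in NRP1 at 6.41 (next dog 5.87), ad libitum dog 5 in PLVAP at 3.51 (next dog 3.05) and ad libitum dog 7 in ANGPT2 at 4.05 (next dog 3.90). MMRN2, PLVAP and ANGPT2 were below the filter, where such gaps are small differences near background.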

How the results depend on the processing

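No vascular gene passed under any alternative run, and the number with an unadjusted p under 0.05 was 1 to 5 with a dog left out: 5 without ad libitum dog 7 (FLT1, VEGFB, SMTN, PDGFRB and MCAM), 3 without ad libitum dog 8 (KDR in addition to FLT1 and SMTN), 1 without control dog 3 or 9 (FLT1), and 2 otherwise. Over all probe sets that number was 1088, 695 to 2151 with a dog left out, 1865 with array weights, 483 with the adipocyte covariate and 387 of gene means. One probe set passed the adjusted test with the floor at log2 4 and without ad libitum dog 8. FLT1 kept its direction throughout, and 14 of the 33 genes did so. Directions turned with the adipocyte covariate for TIE1 (-0.14), RAMP2 (-0.22), CLDN5 (-0.063), EMCN (-0.34), CAV1 (-0.016), VEGFC (-0.11), NRP1 (0.0068), ACTA2 (-0.45), TAGLN (-0.58) and PDGFRB (-0.040), with cyclic loess for CNN1 (0.0013), and with the mean over probe sets for TIE1 (-0.029) and TAGLN (-0.020). With a dog left out, CALCRL ran from -0.41 to 0.15, RAMP2 from -0.075 to 0.17, EMCN from -0.31 to 0.25, ERG from -0.20 to 0.061, VEGFC from -0.095 to 0.22, ACTA2 from -0.11 to 0.22, TAGLN from -0.12 to 0.30, VWF from -0.14 to 0.081, FLT4 from -0.16 to 0.019, VEGFA from -9.7e-05 to 0.20, TEK from -0.0029 to 0.29, CNN1 from -0.032 to 0.0096, TIE1 from -0.16 to 0.33, ANGPT1 from -0.16 to 0.0038 and EPAS1 from -0.15 to 0.0095. With a dog left out, the median difference ran from -0.099 to 0.11 for endothelial, -0.13 to 0.0095 for ligand, co-receptor and hypoxia, and -0.068 to 0.26 for mural genes, the last without ad libitum dog 7. For the ligand list it was -0.041 with no filter and 0.081 with the filter at log2 6, since genes enter the list in one case and leave it in the other. The cause of the other changes was not tested. No paired analysis was possible because the groups share no animal number.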

Other observations

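Of 5 markers of lymphatic vessels, all on the array, 3 were tested, FLT4 among them. PROX1 and LYVE1, used as markers of lymphatic endothelium, did not meet the filter, with means of 3.72 and 3.30 in ad libitum dogs and 3.75 and 2.93 in control dogs. CCL21, a chemokine of lymphatic endothelium, averaged 7.03 and 5.95, a difference of 1.08 (SE 0.62), and PDPN, podoplanin, differed by 0.25 (SE 0.29). Of the blood cell list 3 of 10 genes were tested, GYPC, PPBP and ALAS2, at -0.026 (SE 0.18), -0.30 (SE 0.97) and -0.19 (SE 1.11), with mean levels of 5.30 to 7.52 in ad libitum and 5.68 to 8.16 in control dogs.

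Of 12 Notch pathway genes 9 had a probe set and 2 were tested, DLL4, the Notch ligand of endothelial tip cells, at -0.075 (SE 0.19) and RBPJ, the DNA-binding partner of Notch, at 0.35 (SE 0.29). NOTCH1, NOTCH2, NOTCH4, JAG1, JAG2, HEY1 and HEYL did not meet the filter, so Notch signalling could not be described from these values.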
